A study of Phaseolus vulgaris with 6 samples.

Results

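The light signalling and circadian clock genes described here are 88 of the 27012 gene models in an RNA sequencing table of common bean (Phaseolus vulgaris) apical stems. They were chosen by words in the table's gene descriptions, such as phytochrome, cryptochrome, phototropin, phototropic, CONSTANS, gigantea and pseudo-response regulator, and not by their expression. By role they comprise 11 photoreceptors, 23 partners of phytochromes and cryptochromes, 37 members of the NPH3 family, 7 CONSTANS-like genes and 10 genes of the clock and of flowering time. Stem tips of the wild type A18 (3 samples) were set against those of the mutant nts (3 samples). The nature of the nts lesion and the gene it affects are not described in the labels. All plants were grown in pots at 25 °C with 14 h of light and 10 h of darkness, and the stem tip was frozen at first flowering, once the mutant's tips had come to look different. The labels give neither the hour of harvest nor whether replicates are separate plants. The tests therefore measure only the spread between these samples, which may be technical.

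Plants read red and far-red light through phytochromes and blue light through cryptochromes and phototropins. In Arabidopsis, active phytochrome binds phytochrome interacting factors (PIFs), basic helix-loop-helix proteins that promote growth in darkness and shade, and leads to their degradation. Phototropins act at the plasma membrane through NPH3-type proteins to bend stems toward light, and NPH3 itself serves as the substrate adaptor of a ubiquitin ligase. The clock, in which GIGANTEA and the pseudo-response regulators are expressed in turn through the day, sets daily timing and, through CONSTANS, the response of flowering to day length.

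Total counts per library lay between 40728394 and 62695701. The main axis of variation held 54.8% of the variance and separated the genotypes, with A18 replicates 1 and 3 on one side (-112 and -116) and nts replicates 1 and 2 on the other (122 and 102). A18 replicate 2 at -36.1 and nts replicate 3 at 40.3 stood apart from the rest, between these groups. For some of the results that rest on them, values are also given without them. They were picked for lying between the genotypes in these data, so a wider contrast without them follows in part from that choice. Without them edgeR called 19.9% of all tested genes at an adjusted p under 0.05, against 0.0947% with all libraries. Marker genes of other tissues were also summed. The summed level of 29 secondary wall and xylem markers ran from 5790.4 to 9708 FPKM in A18 and from 476 to 2437 in nts, and the sum of 92 photosystem and light-harvesting markers of green tissue from 20567 to 35586 and from 35251 to 40704. The wall sums did not overlap between the genotypes, and the green tissue sums overlapped between A18 replicate 1 and nts replicate 3. FPKM is the authors' fragment level per transcript length and sequencing depth. In the green tissue list 6 genes were at 0 counts throughout, in the wall list 0. Sums also overlapped between genotypes for the lists named seed (144 genes, 69 at 0), floral organs (47, 21 at 0) and shoot meristem (35, 16 at 0). The seed sums were 5177 to 7427 FPKM in A18 and 5259.6 to 6321 in nts. The floral organ sums were 402 to 554 and 293 to 412, and the shoot meristem sums 284 to 454 and 299 to 341. These lists were found by description words such as cupin, AGAMOUS and CLAVATA, so they can hold genes that do not mark these tissues. The part of these signals in the results for light and clock genes was not tested. In such bulk tissue, fewer cells of a type and less RNA per cell cannot be told apart.

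The question addressed is which transcripts differ between the mutant and wild-type stem tips. Among light and clock genes the widest differences were in phototropin 1, in the PIF family and in the Aux/IAA-type phytochrome-associated proteins, in both directions. PIF3, phototropin 1 and CONSTANS-like 5 had log2 changes above 1 in nts against A18, and PIF3-like 6 and several NPH3 genes had log2 changes below -1. The GIGANTEA and pseudo-response regulator genes all had lower fitted levels in nts, with log2 changes from -0.82 to -0.11. None of these differences passed edgeR's quasi-likelihood test at an adjusted p under 0.05 over all genes.

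Of the 88 genes 79 were abundant enough to be tested, among 21126 tested genes in the table. Of the 9 others, 7 had 0 counts in every library. They were 4 of the 5 genes described as PFT1, the phytochrome-associated protein 1 gene Phvul.004G083000 and the NPH3 genes Phvul.007G148900 and Phvul.007G181100, and a further pair of NPH3 genes was too low to test. At an adjusted p under 0.05 edgeR called 0 of the 79, with a lowest value of 0.0541, where 0.0947% of all tested genes were called. At an unadjusted p under 0.05 it counted 20 of 79 (25.3%), 10 higher and 10 lower in nts, against 18% of all genes, of which 8.39% were higher and 9.58% lower. DESeq2, the alternative count test, called 12 (15.2%) at an adjusted p under 0.05, 7 higher and 5 lower, against 11.4% of all genes (4.91% higher, 6.49% lower). With limma on log2(FPKM + 1) or log2(FPKM + 0.1), 1 gene was called, against 2.07% and 2.13% of all genes. At the study's own thresholds, an unadjusted p of at most 0.05 with a log2 change of 2 or more, or -2 or less, phototropin 1 alone was higher and 0 were lower, where 5.43% of all genes passed, 2.06% higher and 3.37% lower.

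The FPKM of the genotypes did not overlap for 27 of the 79 genes (34.2%), with nts above A18 in 11 and below in 16. Over all tested genes the share was 24.3%, with nts above in 10% and below in 14.3%. Fitted log2 changes, given as nts minus A18 throughout, were below 0 for 45 genes, where 49.8% of all genes were below 0. They ran from -1.94 to 2.14 with a median of -0.16. The 5th and 95th percentiles of all tested genes were -1.93 and 1.46 and their median was 0.00. By role the medians were 0.16 for 11 photoreceptors, 0.52 for 18 partners, -0.16 for 33 NPH3 genes, -0.63 for 7 CONSTANS-like genes and -0.26 for 10 clock and flowering genes. At an unadjusted p under 0.05 edgeR counted 9 of the 18 partners, 7 of the 33 NPH3 genes, 3 of the 11 photoreceptors, 1 CONSTANS-like gene and 0 clock and flowering genes.

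**Figure D1:**
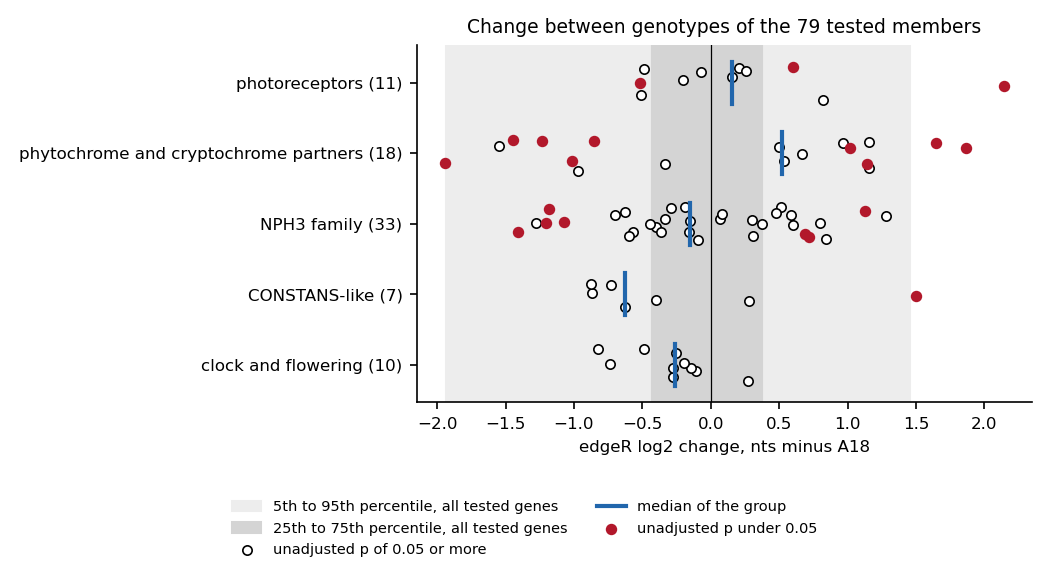
Each point is 1 of the 79 tested genes, placed by role (rows, number of genes in parentheses) at its edgeR log2 change (x axis, nts minus A18). Filled red points have an unadjusted p under 0.05, blue bars are group medians and the grey bands span the 25th to 75th and 5th to 95th percentiles of all tested genes. Partners spread most widely on both sides, from -1.94 to 1.87, and clock and flowering genes stay between -0.82 and 0.27.

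Among the photoreceptors, phototropin 1 showed the widest difference. Phototropin 1 (Phvul.011G070300, chromosome 11, 6325938 to 6335257 as the table gives it), the blue-light receptor kinase of phototropism, had 3.16, 1.92 and 2.61 FPKM in A18 replicates 1, 2 and 3 and 17.1, 10.3 and 4.67 in nts replicates 1, 2 and 3. Every nts library was above every A18 library, although nts replicate 3 was less than 2-fold above the highest of A18. The means were 2.57 ± 0.621 and 10.7 ± 6.23 FPKM (SD, n = 3 per genotype). The edgeR log2 change was 2.14 ± 0.47 (SE), with an adjusted p of 0.101. DESeq2 gave an adjusted p of 0.000577, in a range over all alternatives of 0.000577 to 0.318. Without A18 replicate 2 and nts replicate 3 the log2 change was 2.35, and over single libraries left out it lay between 1.64 and 2.50.

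Phototropin 2 (Phvul.003G274800), which in Arabidopsis shares phototropism at high light and drives chloroplast avoidance, had 10.2, 10.8 and 10.96 FPKM in A18 and 9.94, 8.08 and 8.39 in nts. Every nts library was slightly below every A18 library, with a log2 change of -0.20 ± 0.18 (edgeR adjusted p = 0.609). The pair of phototropins together summed to 13.4, 12.7 and 13.6 FPKM in A18 and to 27.1, 18.4 and 13.1 in nts, where replicate 3 lay inside the A18 range. In A18 phototropin 2 was the more abundant of the pair in every library, and in nts phototropin 1 was the more abundant in replicates 1 and 2 but not in replicate 3. The difference in response between the pair was not tested.

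Cryptochromes, blue-light receptors that restrain stem growth and, in the case of CRY2 in Arabidopsis, promote flowering, included the most abundant photoreceptors. The leading gene, CRY2 Phvul.007G108900, had 160.2, 106 and 203 FPKM in A18 and 94.0, 87.5 and 126 in nts, so the genotypes overlapped (log2 change -0.51 ± 0.29, edgeR adjusted p = 0.412). The other CRY2 gene, Phvul.007G273300, had 18.2, 12.7 and 13.5 FPKM against 9.03, 8.87 and 11.4, with all nts libraries lower (-0.51 ± 0.21, edgeR adjusted p = 0.270). CRY3 (Phvul.009G100200), of the DASH type that acts in organelles, was likewise lower in every nts library, at 10.4, 11.6 and 14.8 FPKM against 5.55, 10.3 and 9.18 (-0.48 ± 0.29, edgeR adjusted p = 0.430). The CRY1 genes differed from each other in sign. CRY1 Phvul.009G031300 was higher in every nts library, with 28.6, 35.4 and 25.3 FPKM in A18 and 43.0, 49.6 and 37.4 in nts (log2 change 0.60 ± 0.23, edgeR adjusted p = 0.248). Its copy Phvul.008G173700 overlapped in part, at 40.9, 34.4 and 33.9 FPKM against 34.8, 23.7 and 39.3 (-0.07 ± 0.24, edgeR adjusted p = 0.909). Without A18 replicate 2 and nts replicate 3, edgeR called CRY1 Phvul.009G031300 (0.88, adjusted p = 0.0233, range over alternatives 0.0233 to 0.575) and CRY2 Phvul.007G108900 (-0.90, adjusted p = 0.0458, range 0.0458 to 0.790). That fit called 19.9% of all tested genes, and its libraries were chosen with these data known.

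None of the phytochrome genes separated the genotypes. Phytochrome B (Phvul.006G118200), the main red-light receptor of green plants, had 10.5, 8.81 and 8.54 FPKM in A18 and 10.2, 10.2 and 10.1 in nts (log2 change 0.21 ± 0.16, edgeR adjusted p = 0.550). Phytochrome A, the far-red receptor, was represented by Phvul.007G206800 with 18.7, 20.2 and 23.7 FPKM against 19.4, 16.3 and 30.1 (0.16 ± 0.28, edgeR adjusted p = 0.818). A second phytochrome A gene, Phvul.001G221100, was low and uneven, at 1.72, 0.867 and 0.866 FPKM against 1.41, 0.482 and 3.75 (0.82 ± 0.74, edgeR adjusted p = 0.613). Its highest value was that of nts replicate 3, and the log2 change was -0.33 without that library and A18 replicate 2. Phytochrome E (Phvul.009G213400) had 3.76, 1.55 and 3.88 FPKM against 3.06, 4.29 and 2.90 (0.26 ± 0.35, edgeR adjusted p = 0.743). Each of these genes overlapped between the genotypes. The 4 phytochrome genes summed to between 31.4 and 37.0 FPKM in A18 and between 31.3 and 46.9 in nts.

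By mean FPKM in A18, the order of the photoreceptors was led by CRY2 Phvul.007G108900 (157 ± 48.6), followed by CRY1 Phvul.008G173700 (36.4 ± 3.92) and CRY1 Phvul.009G031300 (29.8 ± 5.13). The range of CRY2 Phvul.007G108900 in A18, 106 to 203, lay above that of every other photoreceptor, while the ranges of the CRY1 pair overlapped. Phototropin 1 stood among the lowest in A18, above phytochrome A Phvul.001G221100, and its A18 range overlapped that of phytochrome E. In nts its mean was close to those of phytochrome B (10.2 ± 0.0223) and CRY2 Phvul.007G273300 (9.75 ± 1.39), with ranges that overlapped.

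**Figure D2:**
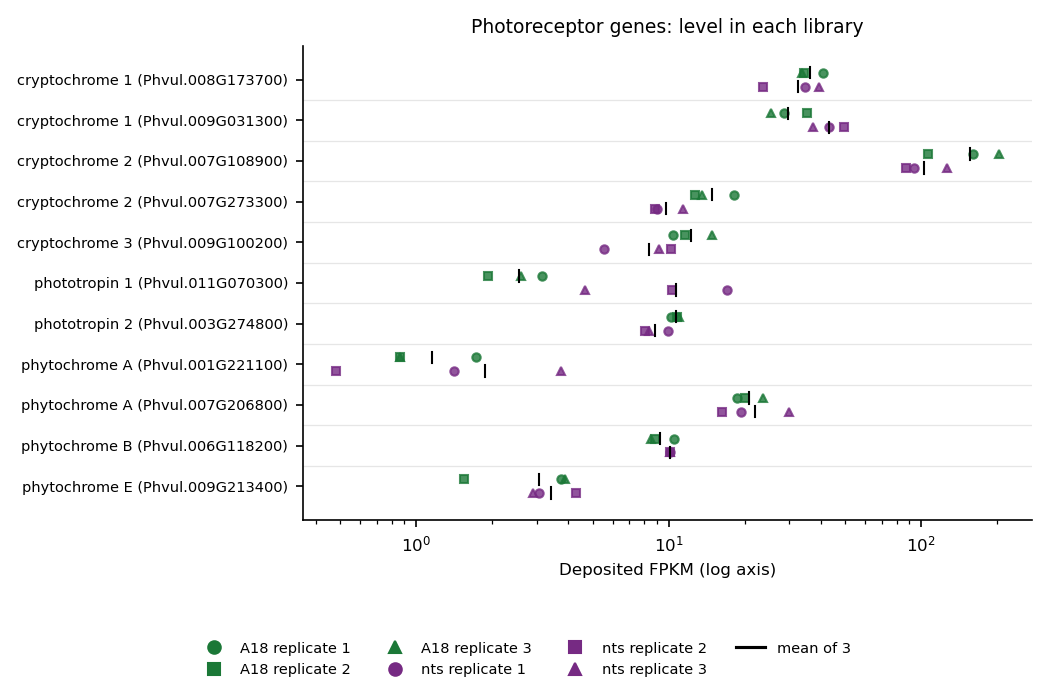
FPKM (log x axis) of the 11 photoreceptor genes in each library, with A18 in green above and nts in purple below for each gene, a marker shape per replicate and black bars at the mean of 3. Phototropin 1 runs from 1.92 to 3.16 FPKM in A18 and from 4.67 to 17.1 in nts, while phytochrome B and phytochrome A overlap between the genotypes.

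All 7 PIF genes were tested, and edgeR called 0 of them at an adjusted p under 0.05. The 3 PIF3 genes, whose Arabidopsis counterpart keeps seedlings elongated and pale in darkness, had log2 changes above 0, without overlap between the genotypes in all but Phvul.007G208500. Phvul.001G218800 (chromosome 1, 47433165 to 47435550) had 27.4, 25.6 and 24.6 FPKM in A18 and 89.3, 73.0 and 68.7 in nts, far outside the spread of either genotype. Its means were 25.9 ± 1.41 and 77.0 ± 10.9 FPKM (SD, n = 3), and it had the lowest adjusted p of all the light and clock genes (edgeR log2 change 1.65 ± 0.19, adjusted p = 0.0541). DESeq2 gave 1.52e-12, and the range over the alternatives was 1.52e-12 to 0.215. It was also the gene called by limma. The log2 change lay between 1.55 and 1.74 whichever library was left out.

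The second PIF3 gene, Phvul.007G206000 (chromosome 7, 32845586 to 32849034), had 12.2, 16.3 and 11.4 FPKM in A18 and 30.1, 27.9 and 26.6 in nts, again with no overlap. The log2 change was 1.15 ± 0.23 (edgeR adjusted p = 0.0892; DESeq2 0.00151, range over alternatives 0.00151 to 0.294). The third, Phvul.007G208500, overlapped, with 7.01, 13.7 and 5.40 FPKM against 16.7, 11.8 and 27.8 (1.15 ± 0.52, edgeR adjusted p = 0.309). Summed, the PIF3 genes gave 46.6, 55.6 and 41.4 FPKM in A18 and 136, 113 and 123 in nts.

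The 3 genes named PIF3-like 5 and 6 had log2 changes below 0, and only Phvul.007G156200 did not overlap between the genotypes. No test compared them with the PIF3 genes. PIF3-like 5, known in Arabidopsis also as PIF1 and as a repressor of seed germination and greening, was represented by Phvul.007G156200 (chromosome 7, 26387078 to 26399167), with 85.0, 51.9 and 59.6 FPKM in A18 and 35.0, 34.2 and 33.2 in nts. All nts libraries were lower and nearly equal (log2 change -0.85 ± 0.20, edgeR adjusted p = 0.112; DESeq2 0.00284, range over alternatives 0.00284 to 0.350). Its copy Phvul.001G168700 had 36.4, 13.9 and 32.4 FPKM against 5.42, 15.7 and 11.5, with A18 replicate 2 inside the nts range (-1.24 ± 0.46, edgeR adjusted p = 0.235). Without A18 replicate 2 and nts replicate 3 the log2 change of this copy was -1.61 (edgeR adjusted p = 0.0815). PIF3-like 6 (Phvul.008G196800), the counterpart of PIF5, which promotes elongation in shade, had 22.0, 8.99 and 28.3 FPKM against 5.55, 3.75 and 10.7. Its log2 change of -1.44 ± 0.52 (edgeR adjusted p = 0.223) became -2.32 without A18 replicate 2 and nts replicate 3, the libraries that overlapped.

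The summed level of these PIF3-like genes was 143, 74.8 and 120.4 FPKM in A18 and 46.0, 53.6 and 55.3 in nts. The ratio of summed PIF3 to summed PIF3-like 5 and 6 was therefore 0.325, 0.743 and 0.344 in the A18 replicates and 2.96, 2.10 and 2.22 in the nts replicates. It was below 1 in every A18 library and above 2 in every nts library. The ratio was formed after the values were seen and carries no test. PIF4 (Phvul.006G028500), which drives elongation in warmth, had 23.7, 23.9 and 21.8 FPKM against 33.1, 24.1 and 47.1, with nts replicate 2 barely above A18 (0.67 ± 0.29, edgeR adjusted p = 0.288). Over the 7 PIF genes, edgeR counted 2 higher and 3 lower at an unadjusted p under 0.05, where 18% of all tested genes passed (8.39% higher, 9.58% lower). The third PIF3 gene and PIF4 were named after their values were seen, to complete the family.

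**Figure D3:**
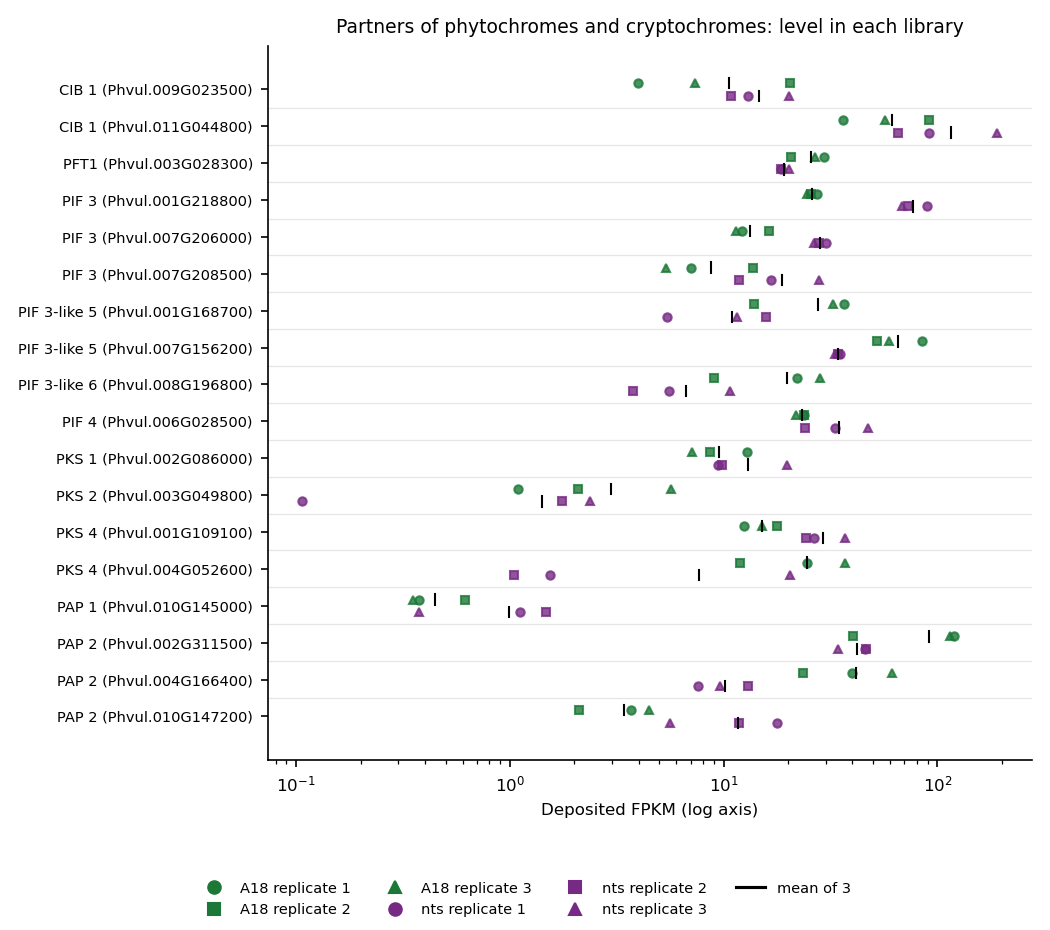
FPKM (log x axis) of the 18 tested partners of phytochromes and cryptochromes in each library, with A18 in green and nts in purple, a marker shape per replicate and black bars at the mean of 3. PIF3 Phvul.001G218800 sits at 24.6 to 27.4 FPKM in A18 and 68.7 to 89.3 in nts, and PIF3-like 5 Phvul.007G156200 at 51.9 to 85.0 and 33.2 to 35.0.

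Phytochrome-associated proteins (PAP) 1 and 2 are members of the Aux/IAA family, repressors of auxin-responsive transcription, and all 5 of these genes carry the annotation response to auxin. The PAP2 genes diverged. Phvul.004G166400 (chromosome 4, 47048145 to 47050696) had 40.0, 23.5 and 61.3 FPKM in A18 and 7.59, 13.0 and 9.66 in nts, with every nts library lower (means 41.6 ± 18.9 and 10.1 ± 2.74). Its log2 change of -1.94 ± 0.36 was the lowest of the 79 genes in this fit (edgeR adjusted p = 0.0777; DESeq2 6.04e-05, range over alternatives 6.04e-05 to 0.274). Phvul.002G311500, the most abundant PAP2 gene, had 119.9, 40.3 and 115 FPKM against 45.9, 46.1 and 34.2, with A18 replicate 2 inside the nts range (-1.01 ± 0.37, edgeR adjusted p = 0.230). Without A18 replicate 2 and nts replicate 3 its log2 change was -1.25 (edgeR adjusted p = 0.0103), in a fit that called 19.9% of all tested genes. Phvul.010G147200 was higher in every nts library, with 3.67, 2.10 and 4.47 FPKM in A18 and 17.7, 11.8 and 5.58 in nts (means 3.41 ± 1.20 and 11.7 ± 6.07). The log2 change was 1.87 ± 0.48 (edgeR adjusted p = 0.131; DESeq2 0.00589, range over alternatives 0.00589 to 0.380). The sum of the PAP2 genes was 164, 65.9 and 180.2 FPKM in A18 and 71.2, 70.9 and 49.4 in nts, so the sums overlapped through A18 replicate 2.

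Phytochrome kinase substrate (PKS) proteins act with phototropins in phototropism in Arabidopsis. PKS4 Phvul.001G109100 was higher in every nts library, with 12.5, 17.7 and 15.1 FPKM in A18 and 26.4, 24.3 and 36.9 in nts (log2 change 1.02 ± 0.28, edgeR adjusted p = 0.142; DESeq2 0.0252, range over alternatives 0.0252 to 0.391). The other PKS4 gene, Phvul.004G052600, named after its values were seen, had 24.5, 11.97 and 37.2 FPKM in A18 and 1.53, 1.05 and 20.3 in nts. It was low in nts replicates 1 and 2 and within the A18 range in nts replicate 3, so its log2 change was -1.55 ± 1.14 with all libraries (edgeR adjusted p = 0.531) and -4.46 without A18 replicate 2 and nts replicate 3. CIB1 Phvul.011G044800, a basic helix-loop-helix partner of CRY2 that promotes flowering in Arabidopsis, overlapped at 36.3, 91.6 and 56.7 FPKM against 91.0, 65.6 and 191 (0.97 ± 0.55, edgeR adjusted p = 0.409). The expressed PFT1 gene (Phvul.003G028300), a subunit of the Mediator complex named here after its values were seen, was slightly lower in every nts library, at 29.5, 20.6 and 26.9 FPKM against 18.5, 18.5 and 20.3 (-0.34 ± 0.17, edgeR adjusted p = 0.349).

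The NPH3 family, the largest group, was annotated with protein ubiquitination in 34 of its 37 genes and with the plasma membrane in 35. Its 33 tested members went both ways, with 15 log2 changes above 0 and 18 below, and edgeR counted 3 higher and 4 lower (21.2%) at an unadjusted p under 0.05, close to the 18% of all tested genes. The 37 genes together summed to 569, 619 and 612 FPKM in A18 and 444, 460.0 and 740.3 in nts, where replicate 3 was the highest of all 6 libraries. Which of these genes is the counterpart of Arabidopsis NPH3 is not given by the descriptions.

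On the lower side Phvul.006G136000 had 52.5, 53.2 and 59.7 FPKM in A18 and 15.0, 18.01 and 35.7 in nts (log2 change -1.18 ± 0.36, edgeR adjusted p = 0.171; DESeq2 0.0314, range over alternatives 0.00846 to 0.430). Phvul.010G010500 had 32.7, 25.5 and 26.9 FPKM against 8.67, 9.93 and 16.1 (-1.21 ± 0.28, edgeR adjusted p = 0.109; DESeq2 0.00404, range over alternatives 0.00404 to 0.332). In both genes every nts library was lower and nts replicate 3 was the nearest to A18. The same order held for Phvul.002G023900, at 8.14, 5.23 and 8.58 FPKM against 2.47, 1.68 and 3.55 (-1.41 ± 0.35, edgeR adjusted p = 0.125; DESeq2 0.00619, range over alternatives 0.00619 to 0.370), and for Phvul.003G064600, at 13.8, 21.3 and 20.6 against 6.39, 5.41 and 13.4 (-1.07 ± 0.42, edgeR adjusted p = 0.254). Phvul.006G195800 was lower too but near the bottom of the range, with means of 1.60 ± 0.897 and 0.610 ± 0.190 FPKM (-1.28 ± 0.57, edgeR adjusted p = 0.305).

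On the higher side Phvul.008G080100 had 10.2, 9.36 and 12.2 FPKM in A18 and 24.1, 16.5 and 24.8 in nts, with no overlap (log2 change 1.13 ± 0.23, edgeR adjusted p = 0.0888; DESeq2 0.00141, range over alternatives 0.00141 to 0.291). Phvul.003G249600 was higher by a smaller margin, at 19.4, 24.7 and 16.5 FPKM against 32.3, 30.2 and 32.9 (0.72 ± 0.24, edgeR adjusted p = 0.191). Phvul.001G203800 overlapped, at 14.8, 9.28 and 17.9 FPKM against 19.8, 26.3 and 17.4 (0.69 ± 0.26, edgeR adjusted p = 0.232). The other abundant NPH3 genes overlapped between the genotypes. Phvul.003G088400 had 34.4, 145 and 65.2 FPKM in A18 and 26.2, 66.5 and 69.7 in nts (-0.57 ± 0.64, edgeR adjusted p = 0.692), and Phvul.005G128400 had 33.1, 39.7 and 32.4 against 27.0, 25.3 and 52.3 (0.07 ± 0.34, edgeR adjusted p = 0.946). Counts of Phvul.008G245701 and Phvul.009G074666, on different chromosomes, lay within 0.949% to 2.92% of each other in every library, so the split of reads between this pair is uncertain.

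CONSTANS-like proteins carry B-box and CCT domains, and CONSTANS itself activates the florigen gene in long days in Arabidopsis. CONSTANS-like 5 (Phvul.003G149000, chromosome 3, 36033381 to 36034582) stood out, with 24.7, 37.5 and 31.5 FPKM in A18 and 118, 73.1 and 62.3 in nts. Every nts library was above A18, with means of 31.2 ± 6.39 and 84.6 ± 29.8 FPKM (SD, n = 3). Its log2 change was 1.50 ± 0.33 (edgeR adjusted p = 0.102; DESeq2 0.00186, range over alternatives 0.00186 to 0.328), and 1.19 to 1.76 with single libraries left out. CONSTANS-like 4 (Phvul.009G085300) was the most abundant of the group and overlapped, at 219, 184 and 235 FPKM against 276, 201 and 251 (0.28, edgeR adjusted p = 0.564). The other 5 genes, named CONSTANS-like 1, 2 and 9, all had log2 changes below 0, down to -0.87. The most abundant of them, CONSTANS-like 2 Phvul.001G137925, had 46.3, 33.96 and 51.2 FPKM against 17.3, 14.5 and 35.4, overlapping through A18 replicate 2 and nts replicate 3 (-0.87 ± 0.40, edgeR adjusted p = 0.316). With these libraries left out its log2 change was -1.51 (edgeR adjusted p = 0.0198), in a fit that called 19.9% of all tested genes.

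The genes described as GIGANTEA (GI) or pseudo-response regulator (PRR) all had log2 changes below 0, from -0.82 to -0.11 in 8 of 8. Over all tested genes 49.8% were below 0. None of the 8 had an unadjusted edgeR p under 0.05. Their adjusted p in edgeR ran from 0.358 to 0.863. The main GI gene, Phvul.007G083500, had 158, 137 and 173 FPKM in A18 and 75.5, 114 and 125 in nts, with no overlap (means 156 ± 18.3 and 105 ± 26.0; -0.49 ± 0.27, edgeR adjusted p = 0.402). The other, Phvul.004G088300, had 29.1, 29.0 and 47.7 FPKM against 9.50, 22.1 and 28.0, again without overlap (-0.74 ± 0.43, edgeR adjusted p = 0.417). GI stabilises the light-sensing F-box proteins of the clock and of flowering in Arabidopsis.

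Pseudo-response regulators repress the morning genes of the clock. PRR5 Phvul.009G045000 was the most abundant, with 215, 188 and 324 FPKM in A18 and 66.2, 144 and 176 in nts, every nts library being lower (means 242 ± 71.9 and 129 ± 56.3; -0.82 ± 0.42, edgeR adjusted p = 0.358). PRR5 Phvul.010G119700 did not overlap either, at 37.2, 37.8 and 48.2 FPKM against 30.8, 30.9 and 34.7 (-0.27 ± 0.18, edgeR adjusted p = 0.490). PRR5 Phvul.009G258300 overlapped, at 8.23, 8.05 and 10.4 FPKM against 7.09, 8.37 and 7.94 (-0.11 ± 0.19, edgeR adjusted p = 0.808). These PRR5 genes thus shared a sign and differed widely in level. PRR7 Phvul.007G162500 had 139.7, 119.9 and 188 FPKM against 115, 116 and 123 (-0.25 ± 0.23, edgeR adjusted p = 0.621). PRR7 Phvul.011G070600 had 65.0, 69.5 and 107 FPKM against 41.4, 77.1 and 87.6 (-0.15 ± 0.34, edgeR adjusted p = 0.863), and PRR3 Phvul.011G070700 had 10.1, 4.88 and 8.64 against 3.66, 9.48 and 5.20 (-0.28 ± 0.42, edgeR adjusted p = 0.780). All 3 overlapped between the genotypes. Without A18 replicate 2 and nts replicate 3, the log2 changes of the GI and PRR genes ran from -1.27 (PRR5 Phvul.009G045000) to -0.17 (PRR5 Phvul.009G258300). In that fit edgeR called 0 of the 8 at an adjusted p under 0.05.

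The libraries of a genotype were ordered alike over these 8 genes. Replicate 1 was the lowest of nts in 8 of 8 and replicate 3 the highest of A18 in 7 of 8, while A18 replicate 2 was the lowest of A18 in 6. Summed, they gave 662, 594 and 907 FPKM in A18 and 349, 522 and 587 in nts, so nts replicate 3 came within a small margin of A18 replicate 2. Genes of the clock vary through the day, and whether all plants were taken at the same hour is not given in the labels, so harvest time and genotype cannot be told apart here. The REF6 genes, histone demethylases counted here through the words early flowering, overlapped between the genotypes. Phvul.009G169700 had 10.1, 10.5 and 9.14 FPKM against 12.5, 11.5 and 10.1 (0.27, edgeR adjusted p = 0.485), and Phvul.003G207700 had 10.2, 5.74 and 7.71 against 5.68, 6.24 and 7.40 (-0.19, edgeR adjusted p = 0.701).

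**Figure D4:**
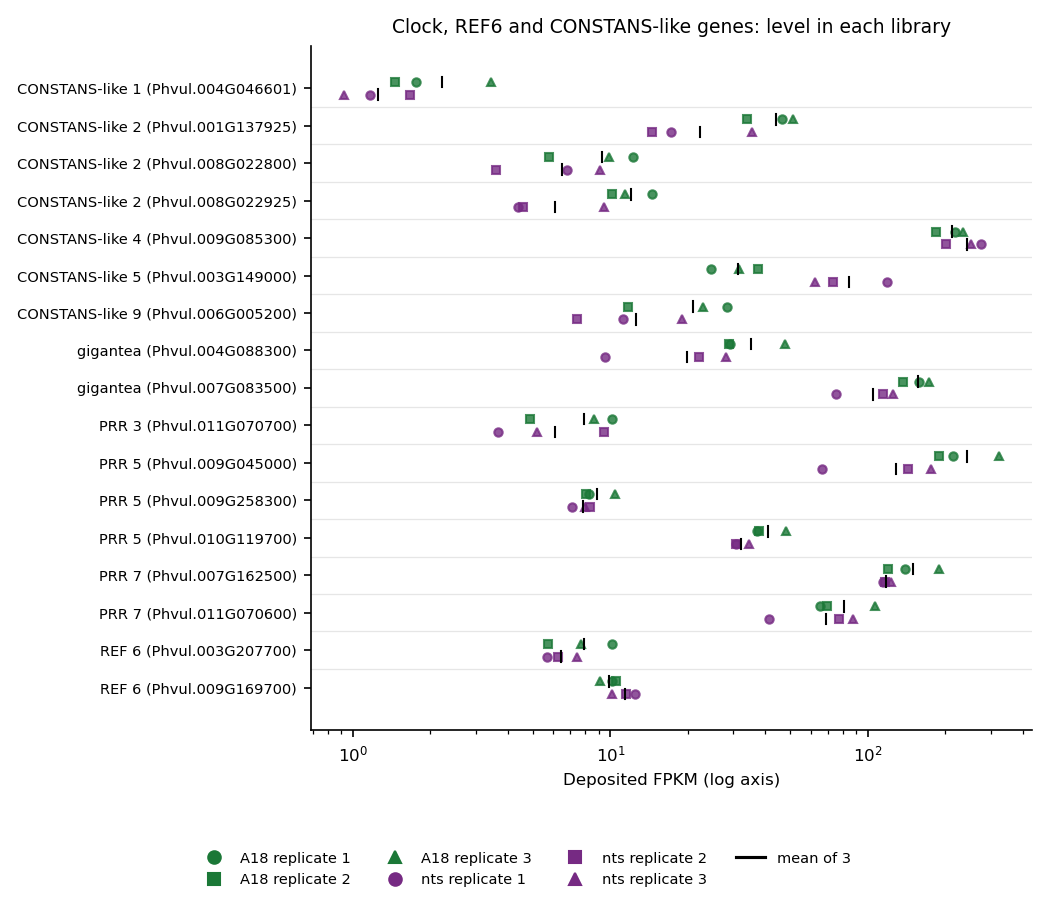
FPKM (log x axis) of the clock, REF6 and CONSTANS-like genes in each library, with A18 in green and nts in purple, a marker shape per replicate and black bars at the mean of 3. CONSTANS-like 5 runs from 24.7 to 37.5 FPKM in A18 and from 62.3 to 118 in nts, and the leading PRR5 gene runs from 188 to 324 in A18 and from 66.2 to 176 in nts.

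The contrast was wider without the libraries that stood apart. Over the 79 genes A18 replicate 2 was the lowest of A18 in 42 and nts replicate 3 the highest of nts in 47. With both left out, edgeR called 25 of 78 genes (32.1%) at an adjusted p under 0.05, 10 higher and 15 lower in nts, against 19.9% of all genes (9.67% higher, 10.3% lower). These comprised 10 partners, 9 NPH3 genes, 3 photoreceptors and 3 CONSTANS-like genes, and 0 clock and flowering genes. All 3 PIF3 genes were called higher, and PIF3-like 6 and PIF3-like 5 Phvul.007G156200 lower, with log2 changes of 1.75, 1.40, 1.31, -2.32 and -0.96. Among the genes called in that fit, the NPH3 gene Phvul.006G080400, chosen after its values were seen, had the opposite sign with all libraries. It had 37.0, 23.3 and 37.3 FPKM in A18 and 17.1, 11.5 and 82.2 in nts, and its log2 change was 0.30 with all libraries and -1.27 without the pair. Each genotype then has 2 libraries, and the choice of libraries to leave out was made with these data known.

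**Figure D5:**
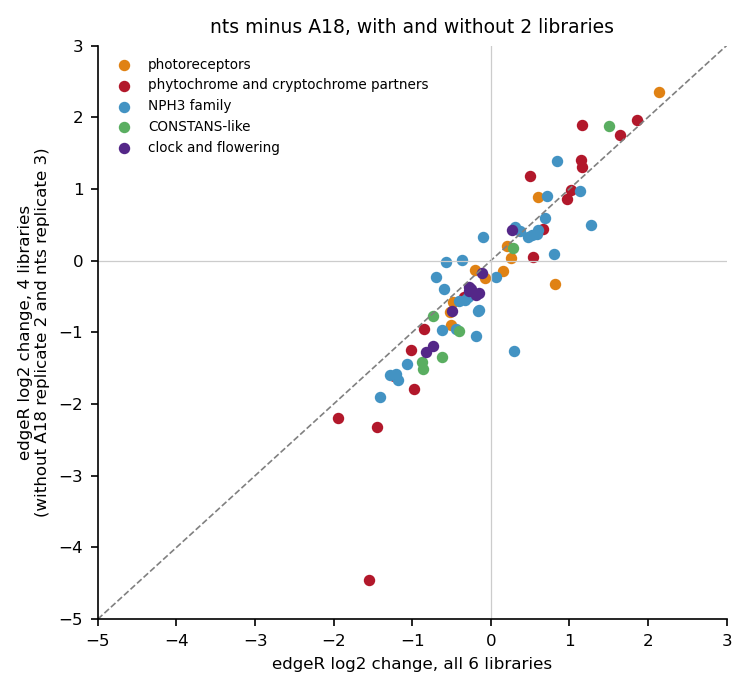
edgeR log2 change (nts minus A18) of each tested gene with all 6 libraries (x axis) and without A18 replicate 2 and nts replicate 3 (y axis), coloured by role, with a dashed line of equality. Most points lie farther from 0 on the y axis, and PKS4 Phvul.004G052600 stands at -1.55 and -4.46.

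Several light genes lie close together in the genome. PIF3 Phvul.001G218800 and phytochrome A Phvul.001G221100 are 208 kb apart on chromosome 1, with 21 genes between them. On chromosome 7 phytochrome A Phvul.007G206800 lies between PIF3 Phvul.007G206000 and PIF3 Phvul.007G208500, at 97.4 kb and 131 kb. In each place PIF3 genes had log2 changes above 1, and phytochrome A had 0.82 on chromosome 1 and 0.16 on chromosome 7. Both phytochrome A genes and PIF3 Phvul.007G208500 overlapped between the genotypes. Phototropin 1 on chromosome 11 is followed by PRR7 Phvul.011G070600 at 29.8 kb and PRR3 Phvul.011G070700 a further 23.8 kb on, and these neighbours had opposite signs, 2.14 against -0.15 and -0.28. The 4 silent PFT1 genes form a pair on chromosome 3, 27.3 kb apart, and a pair on chromosome 4, 15.8 kb apart. The term phototropism was attached to 14 of the 88 genes and to 19 in the whole table, and circadian rhythm to 13, among them all 8 GI and PRR genes.

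Other genes of the pathway were found by words such as B-box, CCT motif, FAR1, COP1, SPA and HY5, in a list of 94 genes that was trimmed of unrelated transporters and enzymes after its descriptions were read. Of 89 tested, edgeR called 0 at an adjusted p under 0.05 and counted 13 (14.6%) at an unadjusted p under 0.05, 4 higher and 9 lower, with a median log2 change of -0.12. DESeq2 called 5 (5.62%). Both shares were below those of all tested genes, 18% in edgeR (8.39% higher, 9.58% lower) and 11.4% in DESeq2. The 9 CCT motif genes without a B-box all had log2 changes below 0, from -1.69 to -0.36, where 49.8% of all tested genes were below 0. Of the 9, 3 had an unadjusted edgeR p under 0.05. The CCT response regulator Phvul.003G188400 had 52.5, 28.4 and 47.5 FPKM in A18 and 10.5, 13.9 and 25.8 in nts, with every nts library lower. Its log2 change was -1.25 ± 0.39 (edgeR adjusted p = 0.174, DESeq2 0.0339, range over alternatives 0.00732 to 0.429). Phvul.009G185500, named after its values were seen, has the same description and overlapped between the genotypes (-0.46 ± 0.23, edgeR adjusted p = 0.349). Both are described as response regulators but were not counted among the PRR genes above, which were grouped by description words. The CCT motif genes Phvul.008G257300 and Phvul.011G069800 were lower in every nts library as well, with 64.5, 35.1 and 78.7 FPKM against 10.99, 28.9 and 33.0 in the former (-1.19 ± 0.46, edgeR adjusted p = 0.246). In Phvul.011G069800 the values were 24.2, 13.9 and 36.0 FPKM against 4.11, 12.3 and 10.1 (-1.38 ± 0.48, edgeR adjusted p = 0.209). FKF1 (Phvul.002G321800), the blue-light F-box protein that works with GI in Arabidopsis, followed the same direction at 60.5, 42.5 and 80.0 FPKM against 25.9, 35.5 and 39.8 (-0.76 ± 0.27, edgeR adjusted p = 0.216).

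B-box genes went both ways, with 4 higher and 1 lower of 21 (23.8%) at an unadjusted p under 0.05, against 18% of all tested genes. Among B-box genes with a CCT domain, Phvul.003G036000 had 13.8, 20.6 and 9.51 FPKM in A18 and 37.8, 28.3 and 29.3 in nts (1.17 ± 0.36, edgeR adjusted p = 0.172). Phvul.001G087300 was also higher in every nts library, at 10.5, 15.6 and 14.7 FPKM against 23.1, 21.3 and 32.2 (0.97 ± 0.29, edgeR adjusted p = 0.162), and Phvul.005G113300 had a log2 change of 1.50 ± 0.55. The B-box gene Phvul.007G033100 had a log2 change of 0.75, and Phvul.011G053700 was lower at 90.0, 101 and 99.6 FPKM against 59.3, 58.1 and 67.8 (-0.57 ± 0.18, edgeR adjusted p = 0.179). All 6 tested SPA genes, partners of the COP1 ubiquitin ligase that degrades light-promoting factors in darkness, had log2 changes below 0. Over all tested genes 49.8% were below 0. Of these SPA genes, Phvul.002G162800 and Phvul.005G071800 were close to 0 (-0.11 and -0.096). Phvul.002G296004 and Phvul.002G296008 were near the floor, with A18 means of 0.386 and 0.220 FPKM. These genes were named after their values were seen. SPA Phvul.010G111100 had 0.988, 0.392 and 1.94 FPKM in A18, whereas each nts library had 0 counts. With a floor set at 3 counts per library, its A18 mean was at least 43.5-fold above nts (edgeR adjusted p = 0.0741; DESeq2 5.78e-08, range over alternatives 5.78e-08 to 0.261). The A18 counts were 130, 37 and 224, so for A18 replicate 2 alone the bound is smaller. With limma on log2(FPKM + 1) the log2 change was -1.01. The most abundant SPA gene, Phvul.010G111200, named after its values were seen, had 29.7, 25.0 and 33.0 FPKM against 4.55, 12.4 and 20.5. Every nts library was lower in it (-1.13 ± 0.51, edgeR adjusted p = 0.309). Of the FAR1 family of far-red signalling, 1 of 27 genes had an unadjusted p under 0.05, FAR1-related sequence 8 (Phvul.006G132500, -1.07 ± 0.35). A COP1-interacting protein-related gene (Phvul.010G067273) had a log2 change of -0.59 ± 0.23. The tested HY5-homolog (Phvul.010G018200), of the factors that COP1 degrades, was higher in every nts library, at 6.71, 7.48 and 5.64 FPKM against 7.83, 8.95 and 11.9 (0.60 ± 0.32, edgeR adjusted p = 0.380), and the other, Phvul.008G126437, was too low to test.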

How the data were processed

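RNA sequencing libraries of 3 A18 and 3 nts apical stems were analysed from the deposited table, which gives, per the file headers, whole-number counts per gene and the authors' FPKM values. Genes with 0 counts stand at 0.0001 FPKM in it and were set to 0. Per the submitters' processing notes, cutadapt 1.9 and FastQC were used. No aligner, counting tool, strand setting, genome build or annotation is given in the sources used here, so coordinates are as the table gives them, a deposited count need not equal 1 fragment, and no sequence is shown. Floors cover counting error only. Replicate libraries differed beyond sampling noise, and each was counted as 1 sample.

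Genotypes were compared on counts with edgeR 4.0.16 in R 4.3.3 (quasi-likelihood F test with robust estimation, filterByExpr, TMM factors from 0.957 to 1.06, genotype as the only term), with Benjamini-Hochberg adjustment over all 21126 tested genes. The common biological coefficient of variation between libraries was estimated at 0.487. Standard errors are the size of the log2 change divided by the square root of F, and so restate the test. Samples of 3 against 3 cannot go below 0.10 in an exact permutation test, so none is given. Samples were not paired by replicate number in the main test. The procedure was run on simulated counts drawn with the spread that edgeR estimated. These held no libraries that stood apart as A18 replicate 2 and nts replicate 3 did, so they do not cover that feature. Alternatives were DESeq2 1.42.0, RLE scaling, other filters, limma 3.58.1 on log2(FPKM + 1) and log2(FPKM + 0.1), each library left out, A18 replicate 2 and nts replicate 3 left out together, and a replicate block.

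Genes were named by rule: every photoreceptor and every clock and flowering gene, in other groups each gene with an unadjusted p under 0.05, or with no overlap, a log2 change beyond 1 or -1 and the same minimum FPKM as below, and the 3 most abundant, and of the pathway genes up to 12 with the smallest p and a mean of at least 1 FPKM in the higher genotype, and the HY5 genes. Exceptions are stated where they occur. The members and lists were chosen with earlier results of these data known.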

Additional observations from a re-analysis of the deposited data

How the results depend on the processing

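The number of genes called over the whole table was 20 and depended on the setting: 2395 with DESeq2, 37 without a filter, 438 and 450 with limma on log2(FPKM + 1) and log2(FPKM + 0.1), 4267 with A18 replicate 2 and nts replicate 3 both left out, and 0 to 964 with single libraries left out. Without A18 replicate 2, 945 genes (4.38%) were called, 6 of 81 light and clock genes (7.41%) among them, and without nts replicate 3 964 genes (4.45%), 7 of 79 (8.86%) among them. Without any other single library 0 light and clock genes were called. With a replicate block 0 genes were called over the whole table. The deviations of same-numbered samples correlated at -0.0163, -0.130 and 0.0385. These values cannot show whether samples were taken in numbered pairs, which the labels do not give. At an unadjusted p under 0.05 the lower members numbered 10, from 5 to 21 with single libraries left out and 25 without both libraries, and the higher members 10, and 16 without both. Members past the study's thresholds numbered 1, from 0 to 4 with single libraries left out, and 4 without both. The members' median log2 change of -0.16 was -0.33 with limma on log2(FPKM + 0.1), -0.029 to -0.33 with single libraries left out, and -0.35 without both, and was below 0 in every setting.

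Among named genes, Phvul.005G128400 (0.07) turned to -0.081 and -0.085 in the limma fits, -0.011 with the replicate block, -0.22 without both libraries and -0.38 to 0.28 with single libraries left out. Without both libraries phytochrome A Phvul.001G221100 turned to -0.33 and Phvul.007G206800 to -0.15, and with single libraries left out they ran from -0.19 to 1.30 and from -0.16 to 0.36. With single libraries left out, Phvul.003G088400 ran from -0.96 to 0.28, PRR7 Phvul.011G070600 from -0.38 to 0.13, PRR3 Phvul.011G070700 from -0.69 to 0.0068 and CRY1 Phvul.008G173700 from -0.25 to 0.14. The cause of these changes was not tested beyond the libraries named. The pathway list before trimming had 30 of 173 tested genes at an unadjusted p under 0.05, an alternative chosen after seeing the data. At 3 libraries a genotype and the depths given, a difference that missed the threshold is not shown to be absent.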
